A study of Rattus norvegicus with 11 samples.

Results

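The comparison covers the 2 RNA-seq libraries of tissue that grew on a PLA scaffold and the 3 libraries of the empty defect (NC), 5 of the 11 libraries of the study, chosen by their labels. The animals were male Sprague Dawley rats, 4 months old, given a composite defect that crossed the coronal suture and the calvarial bone beside it. PLA is polylactic acid, here an electrospun membrane, and NC is the same defect left without a scaffold. In both groups the new tissue was collected 6 weeks after surgery, digested for 1 hour with type 1 collagenase at 3.5 mg/mL and sorted for Cd45- cells. The study also holds GelMA and chitosan (CTS) groups, which are not compared here but share the filter, the scaling and the estimate of the spread between libraries with PLA and NC. The labels do not say whether libraries of a group came from separate animals or pools, so the p-values measure the spread between these libraries, which may be technical. The question addressed here is how the cells recovered from a PLA-filled defect differed from those of an empty one in metabolism, stress responses, lymphoid genes, transporters and transcription factors.

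A polymer implant is met by a foreign body response, in which macrophages settle on the surface and can persist there for as long as the material does. Activated macrophages take up more glucose, break arginine down through inducible nitric oxide synthase or arginase, store lipid droplets and handle iron differently from resting cells. Membranous bone of the skull, in contrast, forms directly from suture and periosteal mesenchyme under patterning factors such as the Zic and Fox families. Cd45, encoded by Ptprc, is the surface marker of leukocytes that the sort was meant to deplete.

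Total counts ran from 22509898 to 27522199 in NC and were 30932534 and 30150370 in PLA, and 18049 of 23781 genes passed the filter on low counts. Levels are given as CPM, counts scaled by TMM to a common library total, in the order NC replicates 1, 2 and 3 and PLA replicates 1 and 2. Ptprc was far from absent, at 1459.7, 336 and 1167 CPM in NC and 1019.6 and 1055 CPM in PLA, and the groups overlapped. NC replicate 2 stood apart from the other NC libraries, as 27 fibroblast markers held 23.1% of its counts against 1.66% and 4.50% in the others, while 18 neutrophil markers held 0.839% against 7.98% and 5.80%. In PLA these lists held 3.19% and 4.12% for fibroblasts and 0.939% and 0.947% for neutrophils. In such bulk samples fewer cells of a type and less RNA per cell cannot be told apart.

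Compared with NC, 1502 genes were higher in PLA (8.32% of the genes tested) and 724 were lower (4.01%). The calls are from edgeR's quasi-likelihood test, with a log2 fold change beyond 1 and a p under 0.05 after Benjamini-Hochberg adjustment. All adjusted p values below come from that test and are adjusted over all 18049 genes. Both PLA libraries lay above every NC library in 3946 genes (21.9%) and below every NC library in 3098 genes (17.2%). Without NC replicate 2 the counts grew to 2045 higher (11.4%) and 1356 lower (7.58%). EdgeR on the 5 libraries alone, with no spread borrowed from the other groups, called 593 higher and 31 lower. Scaling by library size alone moved the median log2 fold change of all genes from −0.11 to −0.43 and the share of calls that were higher from 67.5% to 41.3%, with 1078 higher and 1531 lower. Of the genes named by rule, 139 were called higher and 100 of these kept the call when any 1 of the 5 libraries was left out. Of 57 called lower, 10 kept it in that way, and 45 were lost without PLA replicate 1.

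Among called genes whose groups did not overlap and whose log2 CPM averaged 3 or more, Ca4, Saal1 and Mtmr7 had the largest rises outside the cytokine and chemokine genes. Ca4, a membrane-bound carbonic anhydrase that interconverts carbon dioxide and bicarbonate at the cell surface, stood at 9.17, 3.80 and 4.25 CPM in NC and 1672 and 1728 CPM in PLA. Its log2 fold change was 8.21 (SE 0.82, adjusted p = 0.000171). Tgm1, a transglutaminase that crosslinks proteins, was at 1.61, 1.17 and 3.18 CPM in NC and 116 and 107 CPM in PLA, and Ciart, a repressor in the circadian clock, at 3.65, 4.25 and 2.11 CPM in NC and 110.1 and 139 CPM in PLA. Every NC library was under 10 CPM and both PLA libraries were above 100 CPM for these 3 genes. Log2 fold changes were 5.80 (SE 0.70, adjusted p = 0.000517) for Tgm1 and 5.22 (SE 0.40, adjusted p = 5.26e-05) for Ciart.

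Among the falls that kept their call with any library left out were genes of matrix and of eosinophils. Spock2, a testican proteoglycan of the extracellular matrix, stood at 47.3, 206 and 87.6 CPM in NC and 3.61 and 5.16 CPM in PLA, a log2 fold change of −4.69 (SE 0.75, adjusted p = 0.00266). Thsd4, which promotes microfibril assembly, stood at 19.1, 11.7 and 30.9 CPM in NC and 0.497 and 0.559 CPM in PLA, with a log2 fold change of −5.27 (SE 0.62, adjusted p = 0.000449). Fam111a, a protease needed in DNA replication, had levels of 421, 144 and 232 CPM in NC and 8.21 and 7.61 CPM in PLA. Both PLA libraries were below every NC library for these 3 genes, and the log2 fold change of Fam111a was −5.07 (SE 0.63, adjusted p = 0.000613). Epx, the eosinophil peroxidase, was at 92.0, 22.3 and 130.3 CPM in NC and 0.207 and 0.258 CPM in PLA.

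**Figure D1:**
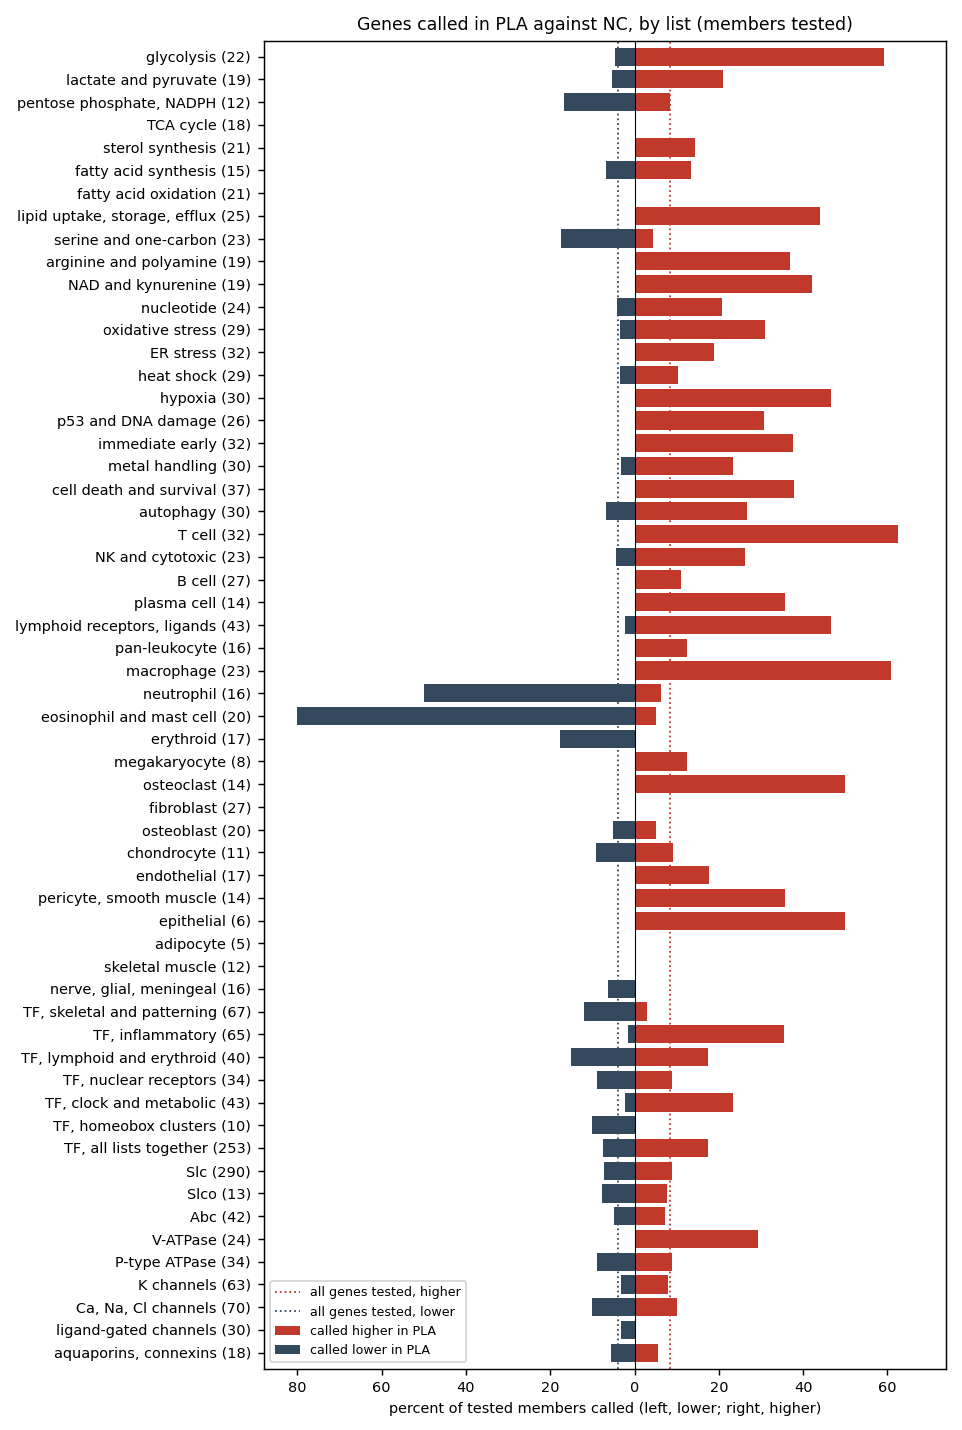
Percent of the tested members of each gene list called higher (right) or lower (left) in PLA than in NC, with the number of members tested in parentheses; dotted lines mark the shares over all genes tested, 8.32% higher and 4.01% lower. T cell, macrophage and glycolysis lists reach furthest to the right, followed by the osteoclast list and an epithelial list of 6 tested genes, and the eosinophil and mast cell and neutrophil lists furthest to the left.

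Glycolysis had the largest share of members higher in PLA among the 12 metabolic lists. Of 22 genes of glucose uptake and glycolysis, 13 were higher and 1 was lower, and the median log2 fold change was 1.40 against −0.11 over all genes tested. The risers covered the pathway from uptake (Slc2a1) through the committed step (Pfkl), the aldolase and triose steps (Aldoa, Tpi1) to lactate (Ldha). Together the 22 genes held 1.27% and 1.25% of counts in PLA and 0.284% to 0.752% in NC. In edgeR on the 5 libraries alone, 4 of the 22 were higher and 0 lower, and with library size scaling 8 were higher and 1 lower.

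Slc2a1, the basal glucose transporter Glut1, stood at 90.9, 128 and 65.9 CPM in NC and 1799.8 and 1898 CPM in PLA. Tpi1, triose phosphate isomerase, had 165, 86.9 and 169 CPM in NC and 1669 and 1768 CPM in PLA. Pfkl, a phosphofructokinase subunit that sets glycolytic flux, was at 37.0, 19.7 and 44.6 CPM in NC and 274 and 306 CPM in PLA. All 3 showed no overlap between the groups and little spread within PLA. Their log2 fold changes were 4.29 (SE 0.35, adjusted p = 5.75e-05), 3.61 (SE 0.31, adjusted p = 7.09e-05) and 3.10 (SE 0.28, adjusted p = 0.000106). Aldoa, an aldolase, rose by 1.99 on the log2 scale (adjusted p = 0.00106) from 767, 356 and 641 CPM to 2341 and 2317 CPM.

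The glucose transporters did not move together. Slc2a3, the high-affinity transporter Glut3 that neutrophils carry, stood at 1199.8, 322 and 705 CPM in NC and 185 and 204 CPM in PLA, and its log2 fold change was −1.93 (SE 0.48, adjusted p = 0.0231). That call was lost without PLA replicate 1 (adjusted p = 0.154) or PLA replicate 2 (adjusted p = 0.133). The neutrophil markers moved in the same direction as Slc2a3, and their part in the result was not tested. Gapdh, often taken as a reference gene, was at 721, 280.3 and 538 CPM in NC and 1254 and 1199 CPM in PLA, a log2 fold change of 1.26 (SE 0.31, adjusted p = 0.0215). Gapdh has many processed copies in the genome, and reads shared with such copies make its level uncertain. Leaving out 1 library ended its call in 4 of 5 cases, by p in 3 (adjusted p = 0.0632 without NC replicate 3, 0.114 without PLA replicate 1 and 0.0998 without PLA replicate 2). Without NC replicate 2 the change was too small for the threshold on size (adjusted p = 0.00118).

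Of 19 genes of lactate and pyruvate metabolism, 4 were higher and 1 was lower, with a median of −0.12, and with library size scaling 3 were higher and 5 lower. The lactate dehydrogenase subunits differed in direction, at very different levels. Ldha, the muscle-type lactate dehydrogenase subunit that favours lactate formation, had levels of 697, 410.4 and 534 CPM in NC and 1809 and 1757 CPM in PLA, while Ldhb, the heart-type subunit, stood at 12.9, 19.8 and 20.1 CPM in NC and 5.56 and 5.93 CPM in PLA. Their log2 fold changes were of opposite sign, 1.70 (SE 0.22, adjusted p = 0.000747) for Ldha and −1.61 (SE 0.25, adjusted p = 0.00226) for Ldhb, and neither gene's groups overlapped. Pdk1, the kinase that closes pyruvate dehydrogenase, was at 12.6, 12.2 and 6.81 CPM in NC and 62.0 and 68.5 CPM in PLA with a log2 fold change of 2.63 (SE 0.27, adjusted p = 0.000187). None of 18 genes of the tricarboxylic acid (TCA) cycle and none of 21 genes of fatty acid oxidation was called in either direction, with median log2 fold changes of −0.26 and −0.41. For 9 of the 18 TCA cycle genes both PLA libraries lay below every NC library, against 17.2% of all genes tested. Without NC replicate 2, 3 of the 21 oxidation genes were lower.

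**Figure D2:**
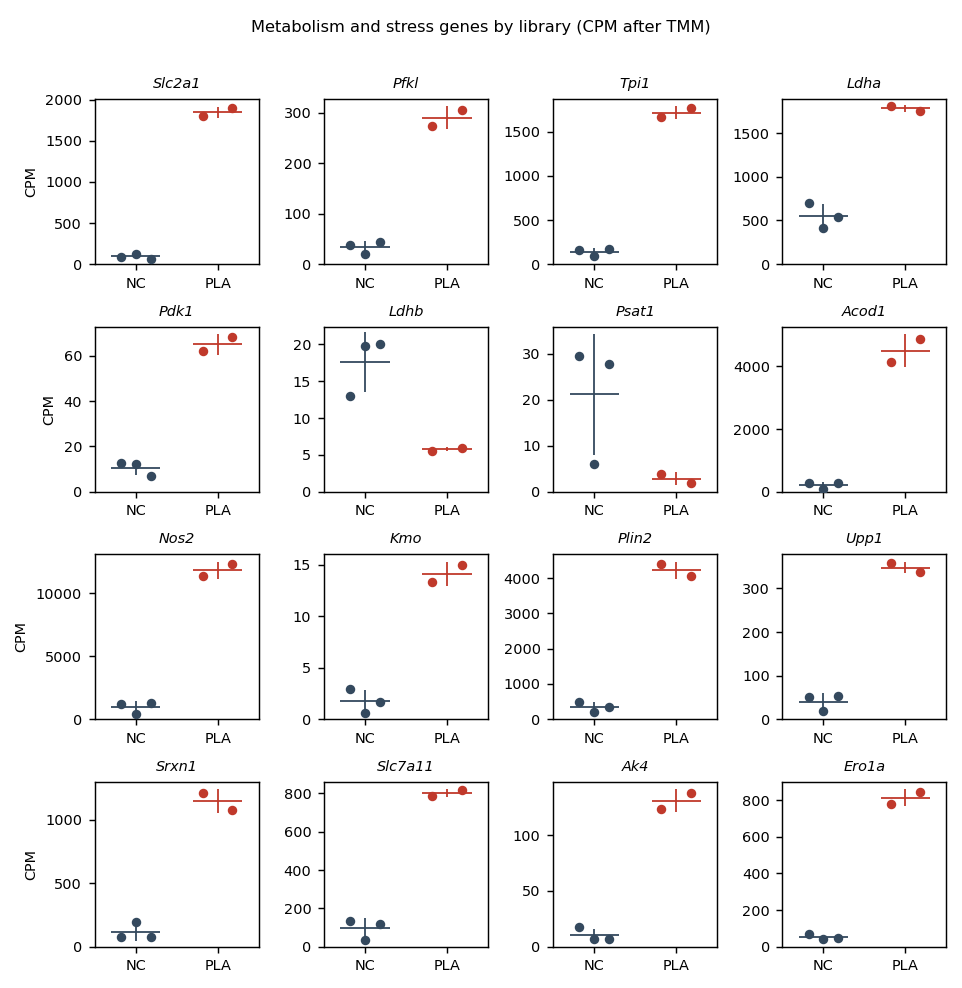
CPM after TMM scaling of 16 metabolism and stress genes in each library (points; horizontal line, mean; vertical line, SD; n = 3 in NC and n = 2 in PLA; axes start at 0). PLA lies above all NC libraries in 14 panels and below them for Ldhb and Psat1.

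Enzymes of serine synthesis were lower in PLA. Of 23 genes of serine and one-carbon metabolism, 4 were lower and 1 was higher, with a median of −0.48. The first 2 enzymes of serine synthesis were both lower, Phgdh at 25.8, 10.5 and 17.3 CPM in NC and 5.47 and 6.53 CPM in PLA and Psat1 at 29.6, 6.05 and 27.9 CPM in NC and 3.81 and 1.81 CPM in PLA. Log2 fold changes were −1.57 (SE 0.36, adjusted p = 0.0167) for Phgdh and −2.91 (SE 0.65, adjusted p = 0.0142) for Psat1. Both calls were lost without either PLA library, at adjusted p of 0.132 and 0.0898 for Phgdh and 0.0542 and 0.129 for Psat1 without PLA replicates 1 and 2. In edgeR on the 5 libraries alone, 0 of the 23 were lower. Bcat1, the cytosolic aminotransferase of branched-chain amino acids, was the riser of that list, at 74.9, 89.6 and 71.7 CPM in NC and 362 and 326 CPM in PLA and a log2 fold change of 2.13 (SE 0.19, adjusted p = 7.76e-05).

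The list of 12 pentose phosphate and NADPH supply genes had 1 higher (8.33% against 8.32% of all genes) and 2 lower (16.7% against 4.01%), and 6 lower without NC replicate 2. Its riser was Me2, the mitochondrial malic enzyme, at 79.7, 27.0 and 56.5 CPM in NC and 176 and 218 CPM in PLA and a log2 fold change of 1.85 (SE 0.34, adjusted p = 0.0054). The lower genes were Rpia and Pgls, with log2 fold changes of −1.72 (adjusted p = 0.0223) and −1.08 (adjusted p = 0.0293). Pgls lost its call without NC replicate 3 (adjusted p = 0.0593). Among 24 nucleotide genes 5 were higher and 1 was lower, with a median of 0.29 that turned to −0.10 with library size scaling. Upp1, a uridine phosphorylase that frees ribose from uridine, stood at 50.8, 18.1 and 52.9 CPM in NC and 358 and 338 CPM in PLA, and Ampd3, an AMP deaminase, at 179, 34.9 and 139 CPM in NC and 677 and 757 CPM in PLA. The 2 genes did not overlap between groups and had log2 fold changes of 3.10 (SE 0.41, adjusted p = 0.000832) and 2.61 (SE 0.49, adjusted p = 0.00625).

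Genes of arginine, nitric oxide, itaconate and polyamine metabolism were more often higher than lower in PLA. Of 19 such genes, 7 were higher and 0 lower (5 and 0 in edgeR on the 5 libraries alone), with a median of 0.73. Nos2, the inducible nitric oxide synthase, rose from 1193, 385 and 1264 CPM to 11351 and 12296 CPM, a log2 fold change of 3.64 (SE 0.47, adjusted p = 0.000736). Acod1, which makes itaconate from a TCA cycle intermediate, had 276, 93.3 and 279.8 CPM in NC and 4141 and 4876 CPM in PLA and a log2 fold change of 4.38 (SE 0.48, adjusted p = 0.000312). Smox, a spermine oxidase, was at 60.9, 21.1 and 52.9 CPM in NC and 427 and 436 CPM in PLA. The entry step moved with them, since Slc7a2, the cationic amino acid transporter that brings in arginine, stood at 29.7, 14.5 and 23.2 CPM in NC and 623 and 643 CPM in PLA. Log2 fold changes were 3.26 (SE 0.36, adjusted p = 0.000311) for Smox and 4.82 (SE 0.37, adjusted p = 5.26e-05) for Slc7a2. NC replicate 2 was the lowest library for each of these 4 genes. The arginases Arg1 and Arg2, picked after their values were seen, were also among the 7 higher genes, with log2 fold changes of 3.129 and 3.022.

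Of 19 genes of NAD and kynurenine metabolism, 8 were higher and 0 lower, with a median of 0.96, and edgeR on the 5 libraries alone called 1. Nampt, the rate-limiting enzyme of NAD salvage, was at 139.8, 254 and 165 CPM in NC and 1030.5 and 1097 CPM in PLA and Kmo, which hydroxylates kynurenine, at 2.89, 0.587 and 1.68 CPM in NC and 13.3 and 15.0 CPM in PLA. Kmo was a low-level gene in both groups, yet its groups did not overlap. Log2 fold changes were 2.51 (SE 0.30, adjusted p = 0.000458) for Nampt and 3.03 (SE 0.55, adjusted p = 0.00529) for Kmo.

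Genes of lipid uptake, storage and efflux were higher in PLA. Of 25 uptake, storage and efflux genes, 11 were higher and 0 lower (7 and 0 in edgeR on the 5 libraries alone), with a median of 0.58. The scavenger receptors Msr1 and Olr1, which take up modified lipoproteins, were at 57.4, 19.7 and 39.7 CPM in NC and 503 and 519.6 CPM in PLA and at 526, 124.7 and 432 CPM in NC and 4270.4 and 4529.7 CPM in PLA. Plin2, the coat protein of lipid droplets, went from 494, 213 and 352 CPM to 4401 and 4055 CPM. On the log2 scale they rose by 3.71 (SE 0.37, adjusted p = 0.000167), 3.61 (SE 0.53, adjusted p = 0.00161) and 3.58 (SE 0.39, adjusted p = 0.000277). Abcg1, a cholesterol exporter, had 18.8, 26.9 and 25.6 CPM in NC and 81.2 and 75.1 CPM in PLA and a log2 fold change of 1.72 (SE 0.24, adjusted p = 0.00127). Of the synthesis lists, 3 of 21 sterol synthesis genes and 2 of 15 fatty acid synthesis genes were higher, shares of 14.3% and 13.3% against 8.32% of all genes. Lss, which closes the sterol ring system, was the sterol gene with the largest rise, at 23.3, 34.4 and 26.5 CPM in NC and 174 and 193 CPM in PLA and a log2 fold change of 2.71 (SE 0.18, adjusted p = 3.1e-05).

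Among stress genes, those that respond to low oxygen were the most often called higher. The hypoxia list had 14 of 30 genes higher and 0 lower (9 and 0 in edgeR on the 5 libraries alone; 18 and 0 without NC replicate 2), with a median of 1.38. Ero1a, which oxidizes disulfide bonds in the endoplasmic reticulum (ER), stood at 67.8, 39.7 and 48.7 CPM in NC and 780.4 and 846 CPM in PLA, and Ak4, a mitochondrial adenylate kinase, at 17.3, 6.69 and 6.89 CPM in NC and 123 and 138 CPM in PLA. Log2 fold changes were 3.97 (SE 0.25, adjusted p = 2.77e-05) and 3.67 (SE 0.41, adjusted p = 0.000333). Bnip3, a mitochondrial receptor of mitophagy, was at 6.45, 71.3 and 14.7 CPM in NC and 356 and 389 CPM in PLA with a log2 fold change of 3.60 (SE 0.81, adjusted p = 0.0148), and lost its call without NC replicate 3 (adjusted p = 0.0553), PLA replicate 1 (0.0584) or PLA replicate 2 (0.0674). Vegfa, the vascular growth factor, had 218, 862 and 265 CPM in NC and 1273 and 1453 CPM in PLA and missed the threshold (log2 fold change 1.60, adjusted p = 0.0522).

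NGCGTG, a core shared by hypoxia-inducible factors and the receptor Ahr, was sought on either strand in the 250 bases before each gene's start. Sites with ACGTG in place of GCGTG were not counted. RefSeq promoters matched by symbol for 13222 of the 18049 genes tested, on build GRCr8, while the counts were made on mRatBN7.2. The core was present in 39.8% of these promoters, in 8 of 13 promoters of called hypoxia genes (61.5%) and in 7 of 12 of called glycolysis genes (58.3%). Other sets held it too, and it was present in 11 of 19 promoters of inflammatory factors called higher (57.9%), in 4 of 8 of oxidative stress genes called higher and in 37.9% of those of all genes called higher. Median GC content was 70.8% and 63.6% in the hypoxia and glycolysis sets and 58.4% over all promoters, and its part in the difference was not tested. In the part of the window nearer the start the shares were 26.1% of all promoters, 46.2% for hypoxia, 33.3% for glycolysis and 52.6% for inflammatory factors. The 4 stretches below end at the base before the start, run 5′ to 3′ on the strand of the gene, and carry the core in capitals. They were chosen after the matches were seen, from 1 glucose transporter and 3 genes that respond to low oxygen, with coordinates chr5:138002362-138002521 (plus strand) for Slc2a1, chr3:77113354-77113513 (plus strand) for Pdk1, chr5:121155036-121155135 (plus strand) for Ak4 and chr1:203154963-203155082 (minus strand) for Bnip3.
Slc2a1: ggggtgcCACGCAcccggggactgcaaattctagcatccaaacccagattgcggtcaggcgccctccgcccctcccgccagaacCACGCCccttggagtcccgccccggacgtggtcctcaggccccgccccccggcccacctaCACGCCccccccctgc
Pdk1: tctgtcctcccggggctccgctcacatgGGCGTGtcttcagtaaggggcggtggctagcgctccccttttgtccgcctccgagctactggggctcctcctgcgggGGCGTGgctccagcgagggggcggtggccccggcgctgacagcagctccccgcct
Ak4: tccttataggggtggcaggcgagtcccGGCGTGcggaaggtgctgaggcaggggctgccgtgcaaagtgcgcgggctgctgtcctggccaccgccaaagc
Bnip3: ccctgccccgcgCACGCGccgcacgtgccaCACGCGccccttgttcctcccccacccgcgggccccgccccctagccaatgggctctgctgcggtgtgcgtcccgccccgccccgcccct
A match is a description of these letters and does not show that a factor bound there.

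Part of the oxidative stress genes rose. Of 29 genes of that list, 9 were higher and 1 was lower, with a median of 0.22 that turned to −0.17 with library size scaling. Srxn1, which repairs oxidized peroxiredoxins, was at 77.7, 195 and 74.8 CPM in NC and 1214 and 1080.5 CPM in PLA, and Slc7a11, the cystine importer that feeds glutathione synthesis, at 134, 37.4 and 119 CPM in NC and 788 and 816 CPM in PLA. Sod2, the mitochondrial superoxide dismutase, went from 697, 474 and 644 CPM to 4176 and 3972 CPM. PLA was above NC in every library for these 3 genes, with log2 fold changes of 3.31 (SE 0.44, adjusted p = 0.000931), 3.05 (SE 0.42, adjusted p = 0.00102) and 2.75 (SE 0.24, adjusted p = 7.21e-05).

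Of 30 genes of metal handling, 7 were higher and 1 was lower, with a median of 0.35 that turned to −0.03 with library size scaling. Among the risers were genes of iron storage and transport. Fth1 and Ftl1, the heavy and light chains of ferritin, were at 1276, 952 and 1150.1 CPM in NC and 19508 and 19749 CPM in PLA and at 823, 736 and 603 CPM in NC and 5766 and 5292 CPM in PLA. Their log2 fold changes were 4.12 (SE 0.30, adjusted p = 4.2e-05) and 2.94 (SE 0.23, adjusted p = 5.26e-05), and the NC libraries were close to each other. Both chains belong to families with many processed copies in the genome, so reads shared with such copies make their levels uncertain. The iron transporters Slc11a1 of phagosomes and Slc11a2 of endosomes were higher as well, at 40.0, 14.0 and 49.8 CPM in NC and 218 and 208 CPM in PLA and at 21.9, 39.3 and 21.0 CPM in NC and 159 and 137 CPM in PLA, with log2 fold changes of 2.62 (SE 0.40, adjusted p = 0.00191) and 2.44 (SE 0.25, adjusted p = 0.000187). Atp7a, the copper pump, was at 59.7, 72.0 and 60.1 CPM in NC and 288 and 288 CPM in PLA and had a log2 fold change of 2.17 (SE 0.17, adjusted p = 5.25e-05).

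In the list of ER stress and the integrated stress response, 6 of 32 were higher and 0 lower, with a median of 0.07 that turned to −0.22 with library size scaling. Ddit3 (Chop), the factor that drives cell death under lasting ER stress, stood at 74.1, 52.4 and 67.8 CPM in NC and 396 and 435 CPM in PLA, and Ppp1r15a, which reverses the block on translation, at 268, 471 and 346 CPM in NC and 1568 and 1673 CPM in PLA. The log2 fold changes were 2.68 (SE 0.23, adjusted p = 7.09e-05) and 2.16 (SE 0.28, adjusted p = 0.000752). Atf4, the factor upstream of both, had 933, 970.3 and 791 CPM in NC and 1097 and 1085 CPM in PLA and did not pass the test (log2 fold change 0.28, adjusted p = 0.276). Of 29 heat shock genes, 3 were higher (10.3% against 8.32% of all genes) and 1 was lower (3.45% against 4.01%), and 6 were higher without NC replicate 2, when 11.4% of all genes were. Hsph1, a chaperone of the Hsp110 family, was at 193, 937 and 341 CPM in NC and 1917 and 2449.9 CPM in PLA, and its call (log2 fold change 2.15 (SE 0.63, adjusted p = 0.0443)) held only without NC replicate 2 among the 5 cases of 1 library left out, with adjusted p from 0.0712 to 0.193 in the other 4.

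Genes of survival and inflammatory cell death were higher as well. Of 37 such genes, 14 were higher and 0 lower (11 and 0 in edgeR on the 5 libraries alone), with a median of 0.65. Bcl2a1, an antiapoptotic Bcl2 family member, was at 167, 108 and 221 CPM in NC and 2339.9 and 2498 CPM in PLA. Cflar, which blocks caspase 8, had 383, 166 and 311 CPM in NC and 2419.6 and 2588 CPM in PLA, and Tnfaip3 (A20), the ubiquitin editor that restrains NF-κB, was at 633, 565 and 592 CPM in NC and 4669 and 4938 CPM in PLA. None of the 3 overlapped between groups, and their log2 fold changes were 3.87 (SE 0.29, adjusted p = 5.17e-05), 3.13 (SE 0.31, adjusted p = 0.00017) and 3.01 (SE 0.20, adjusted p = 3.1e-05). Bax, a proapoptotic partner, was also higher, at 8.44, 11.97 and 9.72 CPM in NC and 48.2 and 45.3 CPM in PLA and a log2 fold change of 2.22 (SE 0.24, adjusted p = 0.000264). The list of p53 and DNA damage genes had 8 of 26 higher and 0 lower, the immediate early list 12 of 32 and 0, and the autophagy list 8 of 30 higher and 2 lower, their medians being 0.46, 0.85 and 0.14 (−0.22 for autophagy with library size scaling). In the immediate early list, Dusp2, a phosphatase of MAP kinases, stood at 52.4, 20.6 and 41.3 CPM in NC and 623 and 599 CPM in PLA with a log2 fold change of 4.00 (SE 0.40, adjusted p = 0.00017), while Fosb had 1796, 4193 and 2633 CPM in NC and 3291 and 2622 CPM in PLA and did not pass the test (log2 fold change 0.04, adjusted p = 0.958). In the autophagy list, Tax1bp1, a receptor that links ubiquitinated cargo to autophagosomes, rose from 373, 349 and 403 CPM to 2558 and 2901 CPM, a log2 fold change of 2.86 (SE 0.23, adjusted p = 5.75e-05).

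T cell genes were higher in PLA, in a sort meant to remove leukocytes. Of 32 T cell genes, 20 were higher and 0 lower (8 and 0 in edgeR on the 5 libraries alone), with a median of 1.76. For 29 of them both PLA libraries lay above every NC library, 90.6% against 21.9% of all genes. The list held little of each library, 0.0253% to 0.0295% of counts in NC and 0.0761% and 0.0795% in PLA. Cd2, an adhesion receptor of T and NK cells, was at 5.73, 4.97 and 6.89 CPM in NC and 53.9 and 55.1 CPM in PLA. Ctla4, the inhibitory receptor that competes with Cd28, stood at 1.36, 2.89 and 2.18 CPM in NC and 22.5 and 38.8 CPM in PLA, and Icos, a costimulatory receptor, at 24.8, 12.6 and 12.1 CPM in NC and 136 and 128 CPM in PLA. Their log2 fold changes were 3.21 (SE 0.33, adjusted p = 0.000186), 3.84 (SE 0.48, adjusted p = 0.000652) and 3.00 (SE 0.50, adjusted p = 0.00317).

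NK genes lay mostly above NC, though few were called. Of 23 NK and cytotoxic genes, 17 had both PLA libraries above every NC library, 73.9% against 21.9% of all genes. The number with both below was 0, against 17.2% of all genes. The median was 1.89, 6 were called higher and 1 lower, and edgeR on the 5 libraries alone called 1 higher. Prf1, the pore-forming protein perforin, was at 4.24, 7.41 and 4.75 CPM in NC and 53.9 and 28.6 CPM in PLA with a log2 fold change of 2.92 (SE 0.49, adjusted p = 0.0033). Nkg7, a granule membrane protein, stood at 89.1, 17.4 and 96.4 CPM in NC and 16.4 and 20.4 CPM in PLA, overlapped between groups, and its fall (log2 fold change −1.88, adjusted p = 0.0482) was lost in 4 of 5 cases of 1 library left out, with adjusted p from 0.0835 to 0.248. Without NC replicate 2 it kept the call (adjusted p = 7.37e-06). Of 27 B cell genes, 3 were higher and 0 lower, 11.1% against 8.32% of all genes, with a median of 0.06 that turned to −0.32 with library size scaling. Ms4a1 (Cd20), a B cell surface protein, was at 1.87, 0.678 and 0.498 CPM in NC and 2.36 and 8.98 CPM in PLA, and its call (log2 fold change 2.48 (SE 0.70, adjusted p = 0.0392)) was lost without PLA replicate 2 (adjusted p = 0.41), NC replicate 2 (0.081) or NC replicate 3 (0.115). Sdc1, the syndecan of plasma cells and epithelia, rose from 23.7, 6.73 and 12.9 CPM to 259 and 192 CPM (log2 fold change 3.96 (SE 0.47, adjusted p = 0.000494)), and 5 of 14 plasma cell genes were higher and 0 lower.

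Receptors and ligands that steer lymphocytes were higher in PLA. Of 43 such genes, 20 were higher and 1 was lower (10 and 0 in edgeR on the 5 libraries alone), with a median of 1.56. Cd274 (Pd-l1) and Pdcd1lg2 (Pd-l2), the ligands of the inhibitory receptor Pd-1, were at 63.0, 96.9 and 106 CPM in NC and 2819 and 3209 CPM in PLA and at 1.19, 0.181 and 0.498 CPM in NC and 31.0 and 31.7 CPM in PLA. Ebi3, a subunit of interleukins 27 and 35, had 43.3, 15.5 and 44.7 CPM in NC and 1131 and 1319 CPM in PLA. No NC library came near the PLA levels of the 3 genes, and the log2 fold changes were 5.09 (SE 0.40, adjusted p = 5.38e-05), 5.64 (SE 0.61, adjusted p = 0.000283) and 5.15 (SE 0.51, adjusted p = 0.00017).

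**Figure D3:**
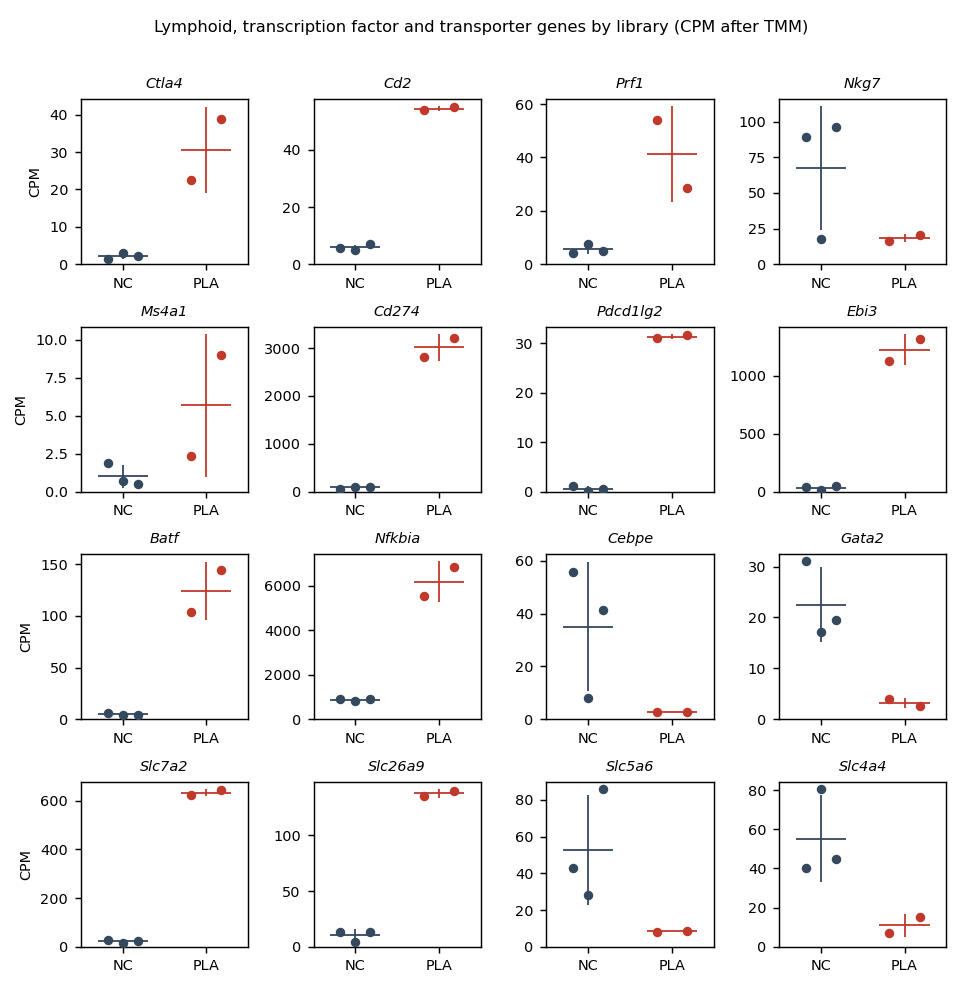
CPM after TMM scaling of 16 lymphoid, transcription factor and transporter genes in each library (points; horizontal line, mean; vertical line, SD; n = 3 in NC and n = 2 in PLA; axes start at 0). PLA lies above all NC libraries in 11 panels, below them for Cebpe, Gata2, Slc5a6 and Slc4a4, and overlaps NC for Nkg7.

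Markers of the other cell types in the tissue moved as well, and their part in the results above was not tested. Of 23 macrophage genes, 14 were higher and 0 lower, while the summed share of the list was 1.33% and 1.30% in PLA and 0.396% to 1.30% in NC. Gpnmb, a glycoprotein of lipid-laden macrophages and osteoclasts, was at 66.4, 362 and 110.4 CPM in NC and 3641 and 3305 CPM in PLA, a log2 fold change of 4.27 (SE 0.70, adjusted p = 0.00302). Of 16 pan-leukocyte genes, 2 were higher and 0 lower, with a summed share of 0.643% and 0.652% in PLA inside the NC range of 0.200% to 1.10%. Without NC replicate 2, 5 of the 16 were lower and 2 were higher.

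Granulocyte genes were lower in PLA. Of 20 eosinophil and mast cell genes, 16 were lower and 1 was higher (4 and 1 in edgeR on the 5 libraries alone), with a median of −4.12 and a summed share of 0.0434% and 0.0390% in PLA against 0.118% to 0.203% in NC. Prg2, the major basic protein of eosinophil granules, stood at 319, 45.0 and 405 CPM in NC and 2.86 and 4.51 CPM in PLA, a log2 fold change of −6.12 (SE 1.12, adjusted p = 0.00544). Its call was lost without PLA replicate 1 (adjusted p = 0.0676) or PLA replicate 2 (0.0544), while that of Epx, at a log2 fold change of −8.43 (SE 1.33, adjusted p = 0.00243), was kept without any 1 library. Of 16 neutrophil genes, 8 were lower and 1 was higher (0 and 0 in edgeR on the 5 libraries alone), and 13 were lower without NC replicate 2. The whole neutrophil list of 18 genes held 0.939% and 0.947% of counts in PLA. That was near the 0.839% of NC replicate 2 and under the 5.80% and 7.98% of the other NC libraries. Siglec5, an inhibitory receptor of myeloid cells and the riser of the eosinophil and mast cell list, was at 9.04, 12.1 and 23.0 CPM in NC and 457 and 389 CPM in PLA with a log2 fold change of 4.84 (SE 0.83, adjusted p = 0.00382).

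Structural lineages differed in their calls. Of 27 fibroblast genes none was called, with a median of −0.79, and without NC replicate 2 the median turned to 0.69 with 6 higher. Collagen genes such as Col1a1, at 3497, 73587 and 9593 CPM in NC and 8625 and 12500.0 CPM in PLA, overlapped between groups. Of 20 osteoblast genes, 1 was higher and 1 was lower, with a median of −0.66, and 3 had both PLA libraries above every NC library (15.0% against 21.9% of all genes). The riser was Spp1 (osteopontin), a matrix protein that macrophages also make and that is on the macrophage list too, at 31.0, 8.31 and 39.0 CPM in NC and 763 and 748 CPM in PLA and a log2 fold change of 4.85 (SE 0.68, adjusted p = 0.00117). The osteoblast list held 0.0839% and 0.0845% of counts in PLA and 0.0495% to 0.0663% in NC, of which Spp1 alone made up 0.0595% and 0.0577% in PLA and at most 0.00425% in NC. Of 14 osteoclast genes, 7 were higher and 0 lower (4 and 0 in edgeR on the 5 libraries alone), among them Oscar, a costimulatory receptor of osteoclasts and myeloid cells, at 6.66, 4.70 and 11.5 CPM in NC and 92.2 and 92.3 CPM in PLA and a log2 fold change of 3.60 (SE 0.47, adjusted p = 0.000775). The summed share of the osteoclast list, 0.1026% and 0.1055% in PLA, lay inside the NC range of 0.08735% to 0.1872%. Its 2 most abundant members, Mmp9 and Ctsk, were not called. Without NC replicate 2, 7 of the list were higher and 2 lower. Of 14 pericyte and smooth muscle genes, 5 were higher (35.7% against 8.32% of all genes) and 0 lower. Without NC replicate 2, 8 were higher, when 11.4% of all genes were, while edgeR on the 5 libraries alone called 0 of the 14. Their summed share overlapped between groups, at 0.114% and 0.0780% in PLA and 0.0242% to 0.0897% in NC. Of 17 endothelial genes, 3 were higher and 0 lower, with a median of 0.67, and with library size scaling 1 was higher and 1 lower. Of 6 epithelial genes tested, Cdh1, Dsg1 and Tp63 were higher and 0 lower.

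**Figure D4:**
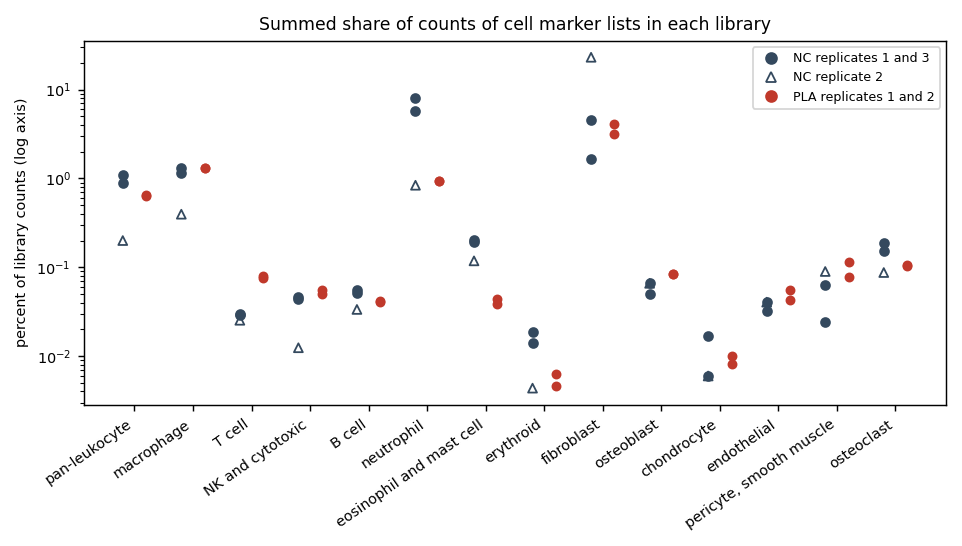
Summed share of library counts, in percent on a log axis, of 14 cell marker lists in each library (blue, NC, with NC replicate 2 as an open triangle; red, PLA). NC replicate 2 holds the highest fibroblast share, 23.1%, and the lowest neutrophil share, 0.839%. Both PLA libraries lie above NC for T cell, NK, endothelial and osteoblast genes, and below NC for eosinophil and mast cell genes. Spp1 makes up most of the PLA share of the osteoblast list.

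Transcription factors of inflammation were higher in PLA. Of 253 factors tested, 44 were higher and 19 lower, with a median of 0.02, and with library size scaling 30 and 27, with a median of −0.25. Of the 65 inflammatory factors, 23 were higher and 1 was lower (16 and 0 in edgeR on the 5 libraries alone), with a median of 0.65. Batf, an AP-1 partner that drives effector programmes in lymphoid and myeloid cells, stood at 5.94, 4.52 and 3.68 CPM in NC and 104 and 144 CPM in PLA. Nfkbia, the inhibitor that holds NF-κB in the cytosol and is itself a target of it, was at 928, 801 and 898 CPM in NC and 5522 and 6838 CPM in PLA, and Nfkb2, an NF-κB subunit precursor, at 218, 187 and 205 CPM in NC and 1156 and 1334 CPM in PLA. On the log2 scale the differences were 4.72 (SE 0.32, adjusted p = 3.1e-05), 2.82 (SE 0.23, adjusted p = 5.75e-05) and 2.61 (SE 0.18, adjusted p = 3.19e-05), with no overlap between groups. Nfkbiz, a nuclear inhibitor that also coactivates, was higher by 2.34 on the log2 scale (adjusted p = 5.75e-05), at 909, 832 and 883 CPM in NC and 4352 and 4512 CPM in PLA. Irf7, a factor of interferon responses, had 25.0, 21.5 and 14.4 CPM in NC and 165 and 204 CPM in PLA, and Maff, a small Maf protein that pairs with Nrf2, 43.8, 155 and 74.6 CPM in NC and 729 and 861 CPM in PLA. Their log2 fold changes were 3.18 (SE 0.61, adjusted p = 0.00681) and 3.13 (SE 0.43, adjusted p = 0.00105). Tfeb, the regulator of lysosome genes, was at 28.8, 11.7 and 22.5 CPM in NC and 90.7 and 119.6 CPM in PLA, and Prdm1 (Blimp1), a repressor that drives plasma cell differentiation, at 21.5, 32.7 and 20.4 CPM in NC and 179 and 168 CPM in PLA. Log2 fold changes were 2.32 (SE 0.32, adjusted p = 0.00108) and 2.80 (SE 0.38, adjusted p = 0.000931).

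A loose NF-κB type motif, GGG, then any 5 bases, then CC, on either strand, was sought in the same promoters. It was present in 57.1% of the 13222 promoters, in 59.5% of those of genes called higher and in 55.6% of those called lower. Of the 19 inflammatory factors called higher that had a promoter, 18 held it (94.7%), and in the part nearer the start 16 did (84.2% against 40.7% of all). Other sets called higher ranged widely, from 3 of 13 genes of the lymphocyte receptor and ligand list (23.1%) and 2 of 8 oxidative stress genes (25.0%) to 9 of 12 glycolysis genes (75.0%) and 10 of 13 hypoxia genes (76.9%). Median GC content was 62.4% in that set and 58.4% over all, and its part in the difference was not tested. The stretches below, chosen after the matches were seen, are the 100 bases before the start of 3 of these factors and of Tnfaip3, 5′ to 3′ on the strand of the gene on build GRCr8, with matches in capitals, overlapping ones run together. They lie at chr6:78597073-78597172 (minus strand) for Nfkbia, chr11:58251621-58251720 (plus strand) for Nfkbiz, chr1:255108274-255108373 (plus strand) for Nfkb2 and chr1:15543980-15544079 (minus strand) for Tnfaip3.
Nfkbia: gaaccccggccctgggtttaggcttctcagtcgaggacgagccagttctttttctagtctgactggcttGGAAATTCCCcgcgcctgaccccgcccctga
Nfkbiz: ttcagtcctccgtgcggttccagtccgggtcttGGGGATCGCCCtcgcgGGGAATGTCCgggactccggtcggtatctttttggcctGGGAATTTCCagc
Nfkb2: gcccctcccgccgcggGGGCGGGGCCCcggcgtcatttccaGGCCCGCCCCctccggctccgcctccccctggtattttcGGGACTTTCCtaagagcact
Tnfaip3: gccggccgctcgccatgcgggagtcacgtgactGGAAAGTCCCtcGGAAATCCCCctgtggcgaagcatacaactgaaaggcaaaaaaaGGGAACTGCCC
These 100 bases held 1 match for Nfkbia and 4 each for Nfkbiz, Nfkb2 and Tnfaip3. The AP-1 motif TGANTCA was present in 4.83% of all promoters and in 7.27% of those of genes called higher.

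Skull patterning factors were more often lower than higher. Of 67 skeletal and patterning factors, 8 were lower (11.9% against 4.01% of all genes) and 2 were higher (2.99% against 8.32%), with a median of −0.74. Without NC replicate 2 the median was −0.07, with 9 lower and 4 higher, when 7.58% of all genes were lower and 11.4% higher. In edgeR on the 5 libraries alone, 2 were higher and 0 lower. Zic1, which patterns the calvaria and the coronal suture, stood at 18.7, 33.1 and 26.5 CPM in NC and 7.75 and 13.4 CPM in PLA, and Foxc1, a factor of calvarial bone growth, at 23.0, 29.8 and 45.2 CPM in NC and 10.5 and 13.5 CPM in PLA. The log2 fold changes were −1.30 (SE 0.36, adjusted p = 0.0335) and −1.45 (SE 0.39, adjusted p = 0.0331). Both calls were lost without NC replicate 3 (adjusted p = 0.0583 and 0.0707), PLA replicate 1 (0.246 and 0.216) or PLA replicate 2 (0.0608 and 0.127). Zeb2, a repressor of epithelial genes that also shapes macrophage identity, was the skeletal list's largest named riser, at 143, 194 and 149 CPM in NC and 954 and 1024 CPM in PLA and a log2 fold change of 2.61 (SE 0.23, adjusted p = 7.09e-05). Of 40 factors of lymphoid, erythroid and granulocyte lineages, 7 were higher (Tcf7, Bcl11b, Ikzf3, Foxp3, Bcl6, Runx3 and Tox) and 6 lower (Gata1, Gata2, Tal1, Gfi1, Myb and Cebpe), with a median of −0.005 that turned to 0.24 without NC replicate 2. Gata2, a factor of mast cells, basophils and progenitors, was at 31.0, 17.2 and 19.4 CPM in NC and 3.90 and 2.54 CPM in PLA, a log2 fold change of −2.81 (SE 0.42, adjusted p = 0.00176) that was kept without any 1 library. Cebpe, which drives late granulocyte maturation, had 55.8, 7.95 and 41.5 CPM in NC and 2.90 and 2.62 CPM in PLA and a log2 fold change of −3.67 (SE 0.88, adjusted p = 0.0194), a call lost without PLA replicate 1 (adjusted p = 0.128) or PLA replicate 2 (0.142). The falls of Gata2 and Cebpe lay beside those of the eosinophil, mast cell and neutrophil markers given above.

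The clock and metabolic factors had 10 of 43 higher and 1 lower, with a median of 0.05 that turned to −0.23 with library size scaling, when 4 were higher and 3 lower. Besides Ciart, they included Mxd1, a partner of Max that opposes Myc, at 641, 197 and 449.7 CPM in NC and 1633 and 2076 CPM in PLA and a log2 fold change of 2.11 (SE 0.39, adjusted p = 0.00605), a call lost without PLA replicate 2 (adjusted p = 0.0507). Of 34 nuclear receptors, 3 were higher (8.82%, near the 8.32% of all genes) and 3 lower (8.82% against 4.01%), and without NC replicate 2 these numbers were 6 and 2.

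**Figure D5:**
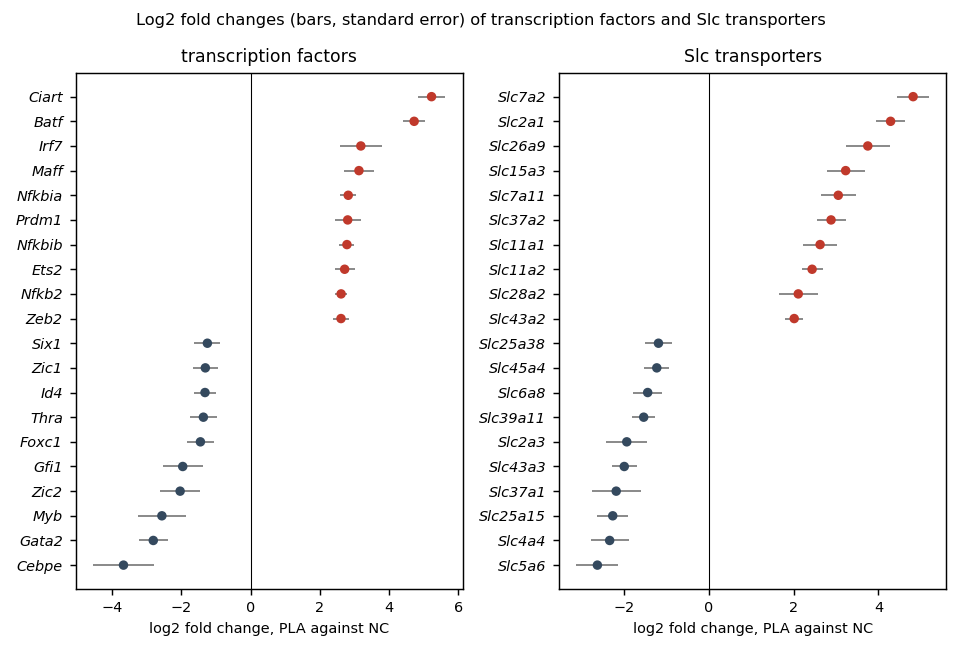
Log2 fold change in PLA against NC (points; bars, standard error) of the 10 largest named rises and 10 largest named falls among transcription factors (left) and Slc transporters (right). Ciart at 5.22 and Slc7a2 at 4.82 are the largest rises, and Cebpe at −3.67 and Slc5a6 at −2.63 the largest falls shown.

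Solute carriers moved in both directions. The Slc genes numbered 343, of which 290 passed the filter, and 26 were higher (8.97% against 8.32%) and 21 lower (7.24% against 4.01%), with a median of −0.17 that turned to 0.03 without NC replicate 2 (38 higher, 37 lower). With library size scaling 18 were higher and 32 lower. Apart from Slc2a1, Slc7a2 and Slc7a11, the rises included Slc26a9, a chloride transporter of epithelia, at 13.3, 3.84 and 13.6 CPM in NC and 135 and 140.2 CPM in PLA. Slc15a3, which exports bacterial peptides from endosomes, had 113, 36.6 and 116 CPM in NC and 802 and 855 CPM in PLA, and Slc37a2, a sugar phosphate exchanger of macrophages and osteoclasts, 9.08, 4.47 and 5.51 CPM in NC and 50.5 and 43.2 CPM in PLA. On the log2 scale the differences were 3.75 (SE 0.52, adjusted p = 0.00116), 3.23 (SE 0.45, adjusted p = 0.0011) and 2.88 (SE 0.34, adjusted p = 0.000449), and no NC library reached the PLA range.

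The falls covered vitamin, bicarbonate and mitochondrial carriers. Slc5a6, the sodium-dependent multivitamin transporter for biotin and pantothenate, stood at 43.1, 28.3 and 86.1 CPM in NC and 8.29 and 8.72 CPM in PLA, and Slc4a4, a sodium bicarbonate cotransporter, at 40.4, 80.5 and 44.8 CPM in NC and 6.84 and 15.0 CPM in PLA. On the log2 scale the differences were −2.63 (SE 0.49, adjusted p = 0.00619) and −2.34 (SE 0.44, adjusted p = 0.00662). The call of Slc5a6 was lost without PLA replicate 1 (adjusted p = 0.0659) or PLA replicate 2 (0.0628), and that of Slc4a4 without PLA replicate 1 (0.0665). Slc25a15, the mitochondrial ornithine carrier, and Slc43a3, a purine base transporter, kept their calls without any 1 library, at 23.4, 11.5 and 22.1 CPM in NC and 4.48 and 3.44 CPM in PLA and at 61.9, 34.6 and 47.9 CPM in NC and 9.29 and 14.9 CPM in PLA, with log2 fold changes of −2.26 (SE 0.37, adjusted p = 0.00268) and −1.99 (SE 0.29, adjusted p = 0.00148). Slc38a2, an amino acid transporter, was at 849, 1602 and 1017 CPM in NC and 1223 and 1127 CPM in PLA and did not pass the test (log2 fold change 0.02, adjusted p = 0.966).

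Subunits of the proton pump of lysosomes were higher in PLA. Of 24 V-ATPase subunit and accessory genes, 7 were higher and 0 lower (4 and 0 in edgeR on the 5 libraries alone), with a median of 0.66, and 18 had both PLA libraries above every NC library, 75.0% against 21.9% of all genes. Atp6v1c1, a subunit of the cytosolic sector, was at 79.2, 71.8 and 70.5 CPM in NC and 434 and 433 CPM in PLA, and Atp6v0b, a subunit of the membrane sector, at 67.9, 24.8 and 53.4 CPM in NC and 370.4 and 406 CPM in PLA. The log2 fold changes were 2.55 (SE 0.16, adjusted p = 2.77e-05) and 2.99 (SE 0.32, adjusted p = 0.000269). Clcn7, the chloride proton exchanger of lysosomes that works beside the pump, had 49.7, 31.5 and 34.5 CPM in NC and 163 and 166 CPM in PLA and a log2 fold change of 2.10 (SE 0.23, adjusted p = 0.000262).

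For ion channels and other pumps the shares called higher were mostly near the 8.32% of all genes. Of 63 potassium channel genes, 5 were higher (7.94%) and 2 lower (3.17% against 4.01%; 8 and 4 genes without NC replicate 2). Of 70 calcium, sodium and chloride channel genes 7 were higher and 7 lower, and of 34 P-type ATPases 3 and 3 (8.82% each). In both of the latter lists the share called lower was well above the 4.01% of all genes. Kcnj2, an inward rectifier, was at 63.0, 22.5 and 67.0 CPM in NC and 570.3 and 551 CPM in PLA, and Piezo1, a channel opened by membrane stretch, at 101, 102 and 91.6 CPM in NC and 278 and 285 CPM in PLA. Neither gene overlapped between groups, and their log2 fold changes were 3.46 (SE 0.40, adjusted p = 0.000436) and 1.52 (SE 0.14, adjusted p = 0.00011). Among the falls, Kcnk5, a potassium channel, was at 10.7, 20.9 and 16.4 CPM in NC and 2.82 and 4.17 CPM in PLA. Its log2 fold change was −2.20 (SE 0.43, adjusted p = 0.00791). Clcn4, Ano8 and Atp2a3 were also lower, with log2 fold changes of −2.265 (adjusted p = 0.0485), −1.56 (0.00241) and −1.85 (0.0267). The call of Clcn4 was lost without NC replicate 1 (adjusted p = 0.0918) and that of Atp2a3 without NC replicate 3 (0.0504). Of 42 ABC transporters, 3 were higher (7.14%) and 2 lower (4.76%). Of 13 organic anion transporters of the Slco family, 1 was higher and 1 was lower (7.69% each). Of 18 aquaporins and connexins, 1 was higher and 1 lower (5.56% each), and of 30 ligand-gated channels 0 and 1 (3.33% lower).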

How the data were processed

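RNA-seq of Cd45- cells was available for 2 PLA and 3 NC libraries. The authors deposited counts per gene and FPKM values for 23781 genes in 11 libraries, and per the labels' processing notes they used fastp, HISAT2, HTSeq and DESeq with the mRatBN7.2 build, versions and parameters not being given in the sources used here. The authors' FPKM, which divide counts by gene length and library total, served for alternatives alone. Library composition differed (TMM factors 0.772 and 0.780 in PLA and 0.804 to 1.09 in NC), so scaling moves every fold change. Samples were grouped by their titles, and 0 columns lacked a sample.

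The counts went into edgeR 4.0.16 under R 4.3.3. They were filtered with filterByExpr (minimum count 10), scaled by TMM and fitted with a robust quasi-likelihood model of all 11 libraries in 4 groups, with group as the only term. PLA was contrasted with NC, and p-values were adjusted by Benjamini-Hochberg over 18049 genes. A call needed a log2 fold change beyond 1 and an adjusted p under 0.05. The standard error is the fold change divided by the square root of F. The smallest exact two-sided permutation p of 2 against 3 libraries is 0.1, so no single gene was tested that way. Alternatives were RLE factors, library size alone, no filter, DESeq2 1.42.0, edgeR on PLA and NC alone, limma 3.58.1 on log2(FPKM + 1) or log2(FPKM + 0.1) filtered at FPKM 1 in 2 libraries or unfiltered, no fold threshold, the replicate number as a block, and each library left out. The scripts were tested on simulated data.

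The 48 gene lists and 9 symbol families were chosen with earlier results of these data known. Each is described by its calls and median, with no test of the list. Named genes are Ptprc, the 12 largest rises and falls among called genes that have a symbol, do not overlap between groups and average 3 or more in log2 CPM, and from each list up to 3 called members per direction (10 for Slc genes and transcription factors) under the same conditions and the 2 with the highest mean FPKM. Nkg7 is of the latter. Promoters came from RefSeq on GRCr8, and no position was moved between builds. Figures were drawn with Python and matplotlib.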

Additional observations from a re-analysis of the deposited data

How the results depend on the processing

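With 2 PLA libraries the counts of calls depended on the fit. Higher genes numbered 593 in edgeR on PLA and NC alone, 917 in limma on log2(FPKM + 1) and 806 in the same without a filter, against 1502 as reported, and 878 to 2045 with 1 library left out. Lower genes numbered 31, 658 and 465 in those fits, 1531 with library size alone, 1390 in DESeq2 and 1158 in limma on log2(FPKM + 0.1), against 724 as reported, and 142 to 1356 with 1 library left out. The causes were not tested. The fits that left libraries out differed both in the number of libraries and in which ones remained. Deviations from the group mean had correlations of 0.0615 and 0.0452 between same-numbered PLA and NC libraries. With 2 PLA libraries these deviations mirror each other, so the values are not separate checks and cannot decide whether the libraries were paired. The numbers were not taken as pairs, and the fit with the replicate block gave 1333 higher and 457 lower genes. Of the 196 named calls, 177 were kept with library size alone, 195 with DESeq2 and 95 in edgeR on PLA and NC alone, each in the same direction. The log2 fold change of Slco3a1, −0.04 and not called, ran from −0.47 to 1.09 with 1 library left out, the latter past the threshold and without NC replicate 2.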
